A study of Mus musculus with 6 samples.

Results

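Genes that mark B cells and their splenic subsets, namely *Cd79a*, *Cd79b*, *Ms4a1*, *Pax5*, *Ebf1*, *Cd22*, *Blk*, *Cr2* and *Fcer2a*, were followed in RNA-seq libraries from the spleens of wild type (WT) and miR-144/451 knockout (KO) mice. The 9 genes are known markers of the lineage, listed by name and not by a measured value, although with earlier results of these libraries known. Each matched 1 identifier by symbol among 44678 Ensembl genes. The 3 WT and 3 KO libraries were labelled as CD8a+ leukocytes of untreated mice. KO mice carry the C57BL/6J background and lack the genomic segment that holds the precursors of both microRNAs, and the WT mice are C57BL/6J. The labels give no age, the study's methods give one range of young adult ages for all of its animals, and the labels do not say whether each library came from 1 mouse, so the p-values measure the spread between these libraries. The study's methods describe magnetic sorting of CD11c+ dendritic cells, of CD8+ T cells and of CD4+ T cells, and its text introduces the sequencing with a question on dendritic cells. They do not state how the sequenced cells were isolated.

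B cells sense antigen through a surface immunoglobulin that signals through the paired chains CD79a and CD79b. The transcription factors EBF1 and PAX5 commit precursors to the B lineage and keep its genes on. In the spleen, mature B cells divide into follicular cells, which carry much CD23 (*Fcer2a*), and marginal zone cells at the border of the white pulp, which carry much of the complement receptor CD21 (*Cr2*). CD8a is not a marker of B cells. Outside the lineage, stromal cells use *Ebf1*, and follicular dendritic cells, which are stromal, carry CD21 and CD23.

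The libraries totalled between 8143971 and 8876570 counts, and levels are given as CPM, the usual scaling of a count by the size of its library. At these depths 3 counts equal 0.338 to 0.368 CPM, which is taken as the floor and covers counting error only. The mean of *Cd8a* was 896 CPM in WT (SD 179, n = 3) against 734 CPM in KO (SD 273, n = 3), so the labelled marker was present in both groups. *Mir144* and *Mir451a* had 0 counts in each library, and the deletion could not be read from the counts. The groups do not stand apart cleanly: WT replicate 1 and KO replicate 3 each differ from the other libraries of their genotype in the B cell genes, as the values below show. In bulk RNA, a difference in the number of cells of a type and a difference in RNA per cell cannot be told apart.

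The promoters of the genes are shown first, as a description of their sequence, and no link to the levels of the genes was tested. RefSeq promoter sequences of GRCm38.p6, from 250 bases before to 50 bases after a gene's start, were at hand for 6 of the 9 genes, and were searched on both strands for the EBF motif TCCCNNGGGA, the E-box CAGGTG bound by E proteins, and the octamer ATTTGCAT. Capitals mark the match in each 30-base window, written 5′ to 3′ on the strand of the gene.
Cd79a, E-box, chr7:24897331-24897360, plus strand: ttgtggccagccCAGGTGcagggcagttcc
Cr2, E-box, chr1:195176790-195176819, minus strand: tccgcccctagtCACCTGcagttgtgcttc
Fcer2a, E-box, chr8:3690943-3690972, minus strand: gtggcacacagcCAGGTGaaacagggaaat
Cd22, E-box, chr7:30879249-30879278, minus strand: ccctaCACCTGttcctggtcacccagaagt
Cd22, EBF, chr7:30879058-30879087, minus strand: tcctgcaagaTCCCTGGGGActcacacaga
These windows are the matches found, apart from another E-box of the same *Fcer2a* promoter. The table holds 9 promoters of these 6 genes, since *Ebf1* and *Fcer2a* have several starts. The E-box occurred in 4 of the 9, those shown above, and 20.2% of 32851 mouse promoters hold it. The EBF motif occurred in that of *Cd22* alone, 49 bases before the start, and 0.904% of all promoters hold it. The octamer was found in none of the 9 and in 1.74% of all promoters. A match of letters is a description of the sequence and no evidence that a factor binds there.

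The genes of the antigen receptor and of its surface partners were abundant in every library. *Cd79a*, on chromosome 7 from 24897381 to 24902197 (GRCm38), encodes the CD79a chain. Its level was 552, 324 and 312 CPM for WT 1, WT 2 and WT 3 and 574, 626 and 250 CPM for KO 1, KO 2 and KO 3. WT replicate 1 and KO replicates 1 and 2 were high, while WT replicates 2 and 3 and KO replicate 3 were low, so the groups overlapped. *Cd79b*, which encodes its partner chain, had 359, 192 and 203 CPM in the WT and 354, 369 and 171 CPM in the KO libraries. The same 3 libraries were high. *Ms4a1*, which encodes CD20, reached 384, 217 and 209 CPM in the WT and 386, 428 and 192 CPM in the KO libraries. *Cd22*, an inhibitory receptor that binds sialic acid and dampens antigen receptor signals, had 395, 238 and 220 CPM in the WT and 439, 452 and 197 CPM in the KO libraries. *Blk*, a Src family kinase downstream of the receptor, had 140, 75.1 and 82.3 CPM in the WT and 154, 157 and 59.6 CPM in the KO libraries. For each of these 5 genes the KO range enclosed the WT range.

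The lineage factors were high in the same 3 libraries. *Pax5*, which keeps B cells committed, had 330, 230 and 201 CPM in the WT and 402, 481 and 198 CPM in the KO libraries. *Ebf1*, which acts before it in the lineage, had 86.6, 43.9 and 44.0 CPM in the WT and 88.5, 111 and 42.3 CPM in the KO libraries. For *Pax5* and *Ebf1*, both high KO libraries lay above all WT libraries, and KO replicate 3 lay below all of them. *Ebf1* and *Cd79b* are on chromosome 11, the chromosome of the deleted locus, at 33.1 and 28.2 Mb from *Mir144*.

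The subset genes followed the same libraries. *Cr2*, the marginal zone marker, had 203, 133 and 115 CPM in the WT and 224, 213 and 93.3 CPM in the KO libraries. *Fcer2a*, the follicular marker, had 184, 98.1 and 90.6 CPM in the WT and 187, 174 and 76.1 CPM in the KO libraries. KO replicate 1 was the highest library for both, whereas KO replicate 2 was the highest for the other 7 genes. KO replicate 3 was the lowest library for all 9 genes.

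**Figure D1:**
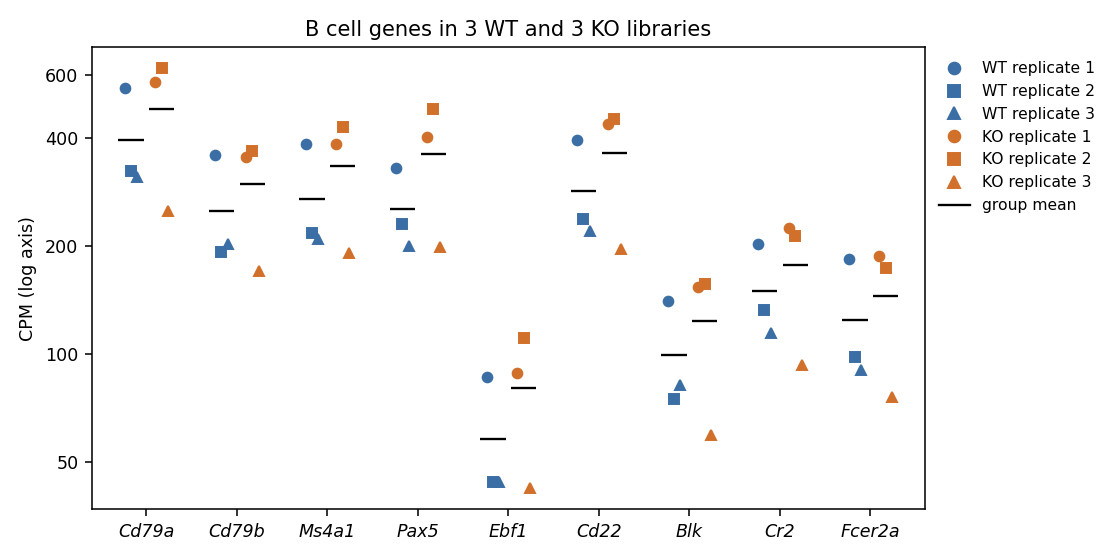
CPM (log axis) of the 9 B cell genes in each library, with WT in blue, KO in orange, the symbol giving the replicate and the bar the group mean. For all 9 genes WT replicate 1 and KO replicates 1 and 2 are the 3 highest points, and KO replicate 3 is the lowest.

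The question of the design is whether loss of miR-144/451 changed these genes. The test was the quasi-likelihood test of edgeR for KO over WT, and p-values were adjusted for 13024 genes by Benjamini-Hochberg. None of the 9 genes had an adjusted p-value under 0.05 in edgeR, where 0.0307% of all tested genes did. None had an unadjusted p-value under 0.05 either, against 6.25% of all tested genes, and DESeq2 and limma voom, which called 0.368% and 0.023% of genes with an adjusted p-value, also called none of the 9. The KO and WT ranges overlapped for all 9 genes, while they did not overlap for 11.5% of tested genes. All 9 fitted changes were above 0, as were 50.6% of tested genes, with a median log2 fold change of 0.29 against 0.003 over all tested genes. The 9 values share the same libraries and are not 9 independent observations.

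*Pax5* had the largest fitted difference, with means of 254 CPM in WT (SD 68.1, n = 3) and 360 CPM in KO (SD 146, n = 3). The log2 fold change was 0.48 ± 0.31 (SE, edgeR adjusted p = 0.819), and its 95% interval ran from 0.856-fold to 2.29-fold. *Ebf1* had a log2 fold change of 0.45 ± 0.37 (SE, edgeR adjusted p = 0.866), and its interval ran from 0.757-fold to 2.46-fold. *Cd22*, *Blk* and *Ms4a1* had log2 fold changes of 0.33, 0.29 and 0.29. *Cd79a* averaged 396 CPM in WT (SD 135, n = 3) and 483 CPM in KO (SD 204, n = 3), a log2 fold change of 0.27 ± 0.34 (SE, edgeR adjusted p = 0.895). *Cd79b*, *Cr2* and *Fcer2a* had the smallest fitted differences, 0.22, 0.21 and 0.21 on the log2 scale. The interval of *Fcer2a*, 0.648-fold to 2.06-fold, allows a fall as well as a 2-fold rise, and intervals of the other genes were about as wide.

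The fitted differences depended on which library was included. Without WT replicate 1 they ran from 0.48 to 0.84 over the 9 genes, and without KO replicate 3 from 0.48 to 0.75. With KO replicate 1 left out they ran from -0.03 to 0.38, and with KO replicate 2 left out from 0.04 to 0.22. Without WT replicate 2 they ran from 0.06 to 0.42, and without WT replicate 3 from 0.009 to 0.32. None of the 9 genes was called by edgeR in any of these 6 fits, including the fit without KO replicate 3, in which 94 genes (0.707%) were called over the whole table and the lowest adjusted p-value of the 9 was 0.186.

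**Figure D2:**
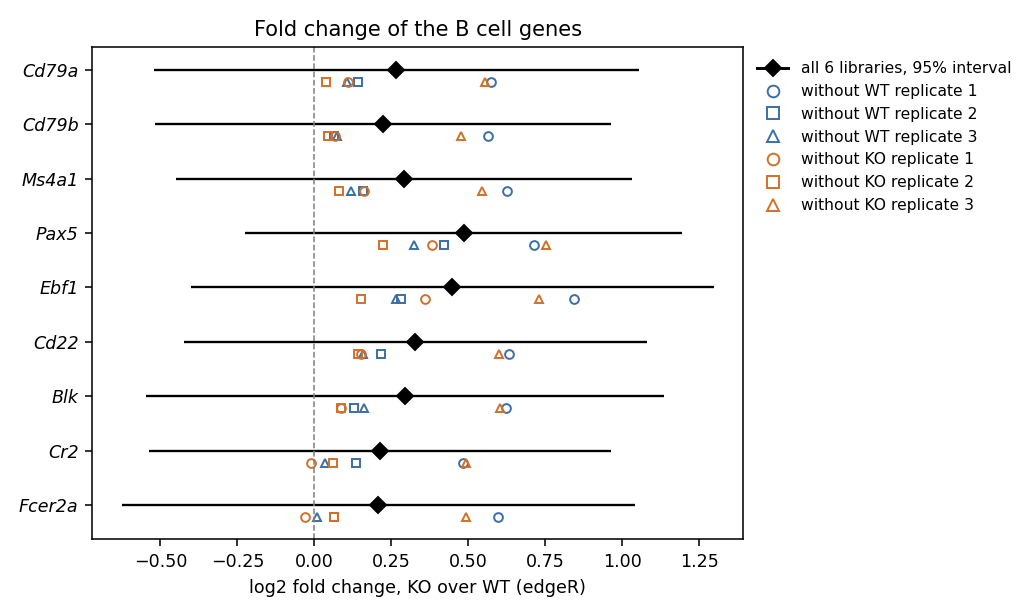
The log2 fold change of KO over WT for each B cell gene from edgeR, as a black diamond with its 95% interval, and the value with each library left out as open symbols. All 9 intervals include 0, and the values move right without WT replicate 1 or KO replicate 3.

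The 9 genes were ordered by level after division by exon length, as CPM per kb of annotated exon. Ratios between genes given further on are of CPM, not divided by length, and serve to compare libraries and not the levels of the genes. On this scale *Cd79a* averaged 302 ± 111 CPM per kb (SD, n = 6) over the libraries and *Cd79b* 192 ± 66.3 CPM per kb (SD, n = 6). *Cd79a* was above *Cd79b* in 6 of 6 libraries, by 1.44-fold to 1.67-fold. *Cd22* averaged 64.2, *Ms4a1* 48.9, *Fcer2a* 43.6 and *Blk* 41.3 CPM per kb. The order of *Fcer2a* and *Blk* held in 4 of 6 libraries and that of *Blk* and *Pax5*, at 34.7 CPM per kb, in 5 of 6, so these neighbours were not separated beyond their spread. *Cr2* averaged 20.2 and *Ebf1* 7.11 CPM per kb, the lowest levels in each library. The exon length counts all annotated exons, so the level of a gene with long rarely used exons is understated.

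**Figure D3:**
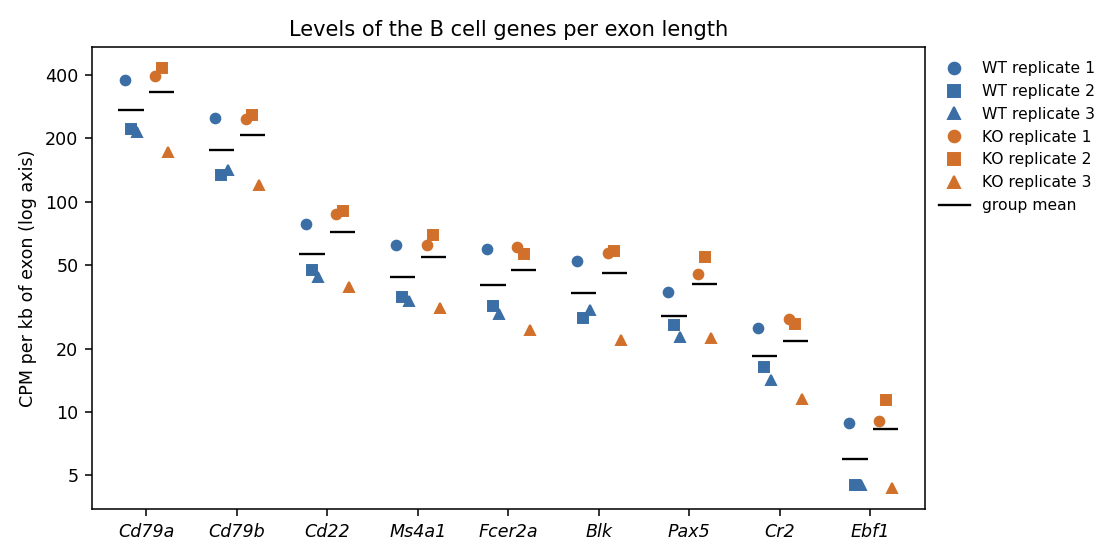
CPM per kb of exon (log axis) of the 9 B cell genes, ordered by their mean, with WT libraries in blue, KO in orange and bars for group means. *Cd79a* and *Cd79b* stand above the rest in every library, and *Ebf1* is the lowest.

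The 9 genes varied widely between libraries and little relative to each other. From the lowest to the highest library a gene spanned 2.16-fold to 2.63-fold. Among 6004 genes with a mean log2 CPM of at least 5, the median span was 1.27-fold, and 4.16% spanned at least as much as the least variable of the 9. The genes summed to 0.263%, 0.155% and 0.148% of counts for WT 1, WT 2 and WT 3 and to 0.281%, 0.301% and 0.128% for KO 1, KO 2 and KO 3. The SD of a gene's log2 CPM over the 6 libraries was 0.521 to 0.63. After each gene was divided by the geometric mean of the other 8 in its library, a scaling chosen after the data were seen, the SD of the log2 ratio was 0.033 to 0.152. *Cd22* had the smallest SD and *Pax5* the largest.

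On this relative scale the KO and WT ranges overlapped for all 9 genes. Of 12959 tested genes with counts in every library, 2.31% did not overlap when divided by the geometric mean of the 9. That divisor carries the spread of the 9 into genes outside the set, so the scales are unlike and this share is no direct background. The log2 ratio of *Pax5* to the other 8 genes was 0.42, 0.73 and 0.57 in the WT and 0.64, 0.83 and 0.80 in the KO libraries. Its means differed by 0.181, close to the SD of 0.152 in the WT and above the SD of 0.102 in the KO libraries. For *Ebf1* the log2 ratio was -1.75, -1.96 and -1.89 in the WT and -1.82, -1.55 and -1.71 in the KO libraries, a difference in means of 0.174. Both lineage factors thus had higher KO means than WT means within the set, with overlapping libraries. The size of these differences rested on single libraries, since that of *Pax5* was 0.105 without WT replicate 1 and ran up to 0.257 without WT replicate 2, and that of *Ebf1* was 0.103 without KO replicate 2 and ran up to 0.236 without KO replicate 1. The differences of the other 7 genes ran from -0.122 for *Cr2* to 0.025 for *Cd22*, and that of *Cr2* was -0.057 without WT replicate 2 and -0.0795 without KO replicate 2.

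**Figure D4:**
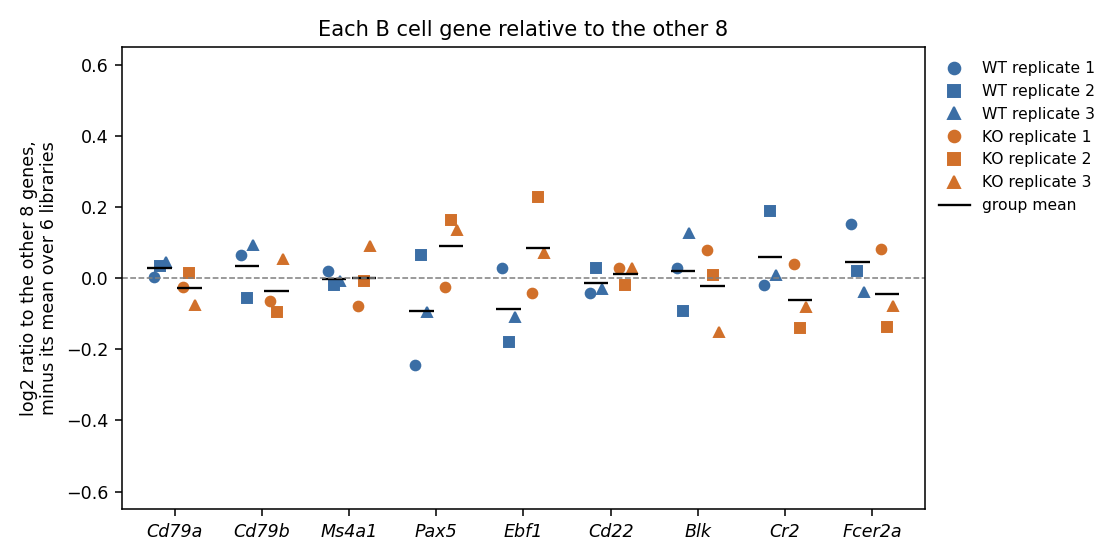
The log2 ratio of each B cell gene to the geometric mean of the other 8 in the same library, minus its mean over the 6 libraries, with WT in blue, KO in orange and bars for group means. *Cd22* and *Cd79a* stay closest to 0, *Pax5* and *Ebf1* have the highest KO means relative to WT, and all groups overlap.

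The proportion of the follicular to the marginal zone marker was compared between the genotypes. The ratio of *Fcer2a* to *Cr2* CPM was 0.906, 0.736 and 0.791 in the WT and 0.835, 0.816 and 0.815 in the KO libraries. The KO libraries lay inside the WT range, whose upper end was WT replicate 1 alone, and all 3 KO ratios lay above those of WT replicates 2 and 3. Its mean on the log2 scale was -0.308 in WT (SD 0.152, n = 3) and -0.283 in KO (SD 0.02, n = 3). An exact two-sided permutation test gave p = 0.8, and 3 against 3 libraries cannot go below 0.1. The difference in log2 ratio, 0.0244 with all libraries, was 0.107 without WT replicate 1 (exact p = 0.2, the smallest that 2 against 3 libraries allow) and -0.0427 without WT replicate 2 (exact p = 0.8). Markers of stroma and follicular dendritic cells, which also use *Cr2* and *Fcer2a*, were low but not all at the floor. Their highest single value was 1.84 CPM, for *Cxcl12* in WT replicate 3. The 6 genes of that list (*Col1a1*, *Col1a2*, *Col3a1*, *Pdgfrb*, *Cxcl12*, *Cxcl13*) together reached 2.14 to 5.16 CPM in the WT and 1.64 to 1.82 CPM in the KO libraries, and none passed the filter on low counts.

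Other genes of the B lineage, from 4 lists of surface receptors, receptor signaling, transcription factors and marginal zone genes, were read in the same way. All 37 passed the filter, and none was called by edgeR, DESeq2 or limma voom, against 0.0307% of all genes in edgeR. In edgeR 35 had a fitted change above 0 and 2 below 0, with a median log2 fold change of 0.279, and the unadjusted p-value of 1 (*Cd9*, named after its values were seen) was under 0.05, where 6.25% of all tested genes were. The number with a fitted change above 0 was 25 without KO replicate 1, 26 without KO replicate 2, 29 without WT replicate 3 and 31 without WT replicate 2, and 36 without WT replicate 1 or KO replicate 3. For 33 of the 37, WT replicate 1 and KO replicates 1 and 2 were the 3 highest libraries, which held for 15.1% of tested genes. *Syk*, the kinase recruited by CD79a and CD79b, had 420, 245 and 270 CPM in the WT and 483, 639 and 213 CPM in the KO libraries, and its log2 fold change was 0.49 ± 0.36 (SE, edgeR adjusted p = 0.844). *Lyn*, the Src family kinase that acts with it, had a log2 fold change of 0.47, and *Spib*, an Ets family factor, 0.31.

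Several genes of these lists are also used by T cells. *Cd37*, a tetraspanin of mature lymphocytes, spanned 335 to 550 CPM over the libraries. *Ikzf3*, which encodes Aiolos, had 323, 336 and 307 CPM in the WT and 358, 381 and 325 CPM in the KO libraries. *Notch2*, the receptor needed for marginal zone cells, had a log2 fold change of 0.14 ± 0.18 (SE). *Dtx1*, a target of Notch signaling, had 298, 414 and 383 CPM in the WT and 369, 297 and 359 CPM in the KO libraries, so that its highest library was WT 2 and its lowest KO 2.

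Genes of precursor, germinal center and plasma cells were read as well. Of 7 early genes, 4 passed the filter. These were *Cd93*, a surface protein of transitional cells, at 9.21 to 22.6 CPM, *Vpreb3* at 5.57 to 13.4, *Dntt*, which adds bases at V(D)J joints, at 1.09 to 6.37, and the recombinase gene *Rag1* at 0.789 to 3.64 CPM over the libraries. The surrogate light chain genes *Vpreb1* and *Igll1* and the other recombinase gene, *Rag2*, did not pass and reached at most 0.683, 0.607 and 0.117 CPM. Of 5 germinal center genes, which included *Bcl6*, *Gcsam*, *S1pr2* and *Fas*, 2 had a fitted change above 0. In the plasma cell list, 4 of 5 tested genes had a fitted change above 0, and its sum was 352 to 845 CPM in the WT and 459 to 777 CPM in the KO libraries. Immunoglobulin genes took 1.18%, 0.618% and 0.521% of counts in WT and 0.833%, 1.15% and 0.638% in the KO libraries, so KO replicate 3 was not the lowest for them. None of these 3 lists had a gene called by edgeR, DESeq2 or limma voom, or one with an unadjusted p-value under 0.05 in edgeR. Over all tested genes, the shares called were 0.0307%, 0.368% and 0.023%. In edgeR, 6.25% of all tested genes had such an unadjusted p-value and 50.6% a fitted change above 0.

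The libraries rich in B cell transcripts also differed in markers of other cells. The 7 CD8 T cell genes summed to 2722, 3609 and 3459 CPM in the WT and 2512, 1927 and 3478 CPM in the KO libraries. Their lowest libraries were the 3 in which the B cell genes were highest for 6 of the 7, against 9.94% of tested genes. The geometric mean of the 9 B cell genes was 0.736, 0.336 and 0.333 of that of the T cell genes in WT and 0.863, 1.18 and 0.289 of it in the KO libraries. Neutrophil genes (*S100a8*, *S100a9*, *Ngp*, *Camp*) summed to 200.2 to 831 CPM in the WT and 333 to 1046 CPM in the KO libraries, and all 4 were highest in the same 3 libraries. Red pulp macrophage genes (*Spic*, *Vcam1*, *Hmox1*, *Cd5l*) summed to 376, 259 and 224 CPM in the WT and 741, 960 and 355 CPM in the KO libraries. All 4 were highest in the same 3 libraries, though the sum of WT replicate 1 was close to that of KO replicate 3. *Cd4* and *Cd40lg* summed to 36.7 to 74.7 CPM in the WT and 30.5 to 84.1 CPM in the KO libraries, and both were highest in those libraries. The 9 conventional dendritic cell genes summed to 536 to 607 CPM in the WT and 715 to 834 CPM in the KO libraries, and 1 of the 9 had those 3 libraries as its highest. Plasmacytoid dendritic cell genes summed to 127 to 164 CPM in the WT and 101 to 142 CPM in the KO libraries. Monocyte genes summed to 695 to 892 CPM in the WT and 799 to 990 CPM in the KO libraries, natural killer cell genes to 18.2 to 44.9 and 20.9 to 48.6 CPM, and erythroid genes to 116 to 486 and 254 to 1555 CPM. The same 3 libraries were the highest for 3 of 4 monocyte, 2 of 3 natural killer cell, 1 of 5 plasmacytoid dendritic cell and 0 of 4 erythroid genes, against 15.1% of tested genes. None of the genes of these lists was called by edgeR or limma voom. DESeq2 called 1 gene of the conventional dendritic cell list (*Cadm1*) and 1 of the macrophage list (*Cd5l*), both named after their values were seen, against 0.368% of genes. Unadjusted p-values under 0.05 in edgeR were found for 6 of 9 conventional dendritic cell, 4 of 4 macrophage and 1 of 4 monocyte genes, against 6.25% of all tested genes. The part of other cells in the B cell values was not tested.

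**Figure D5:**
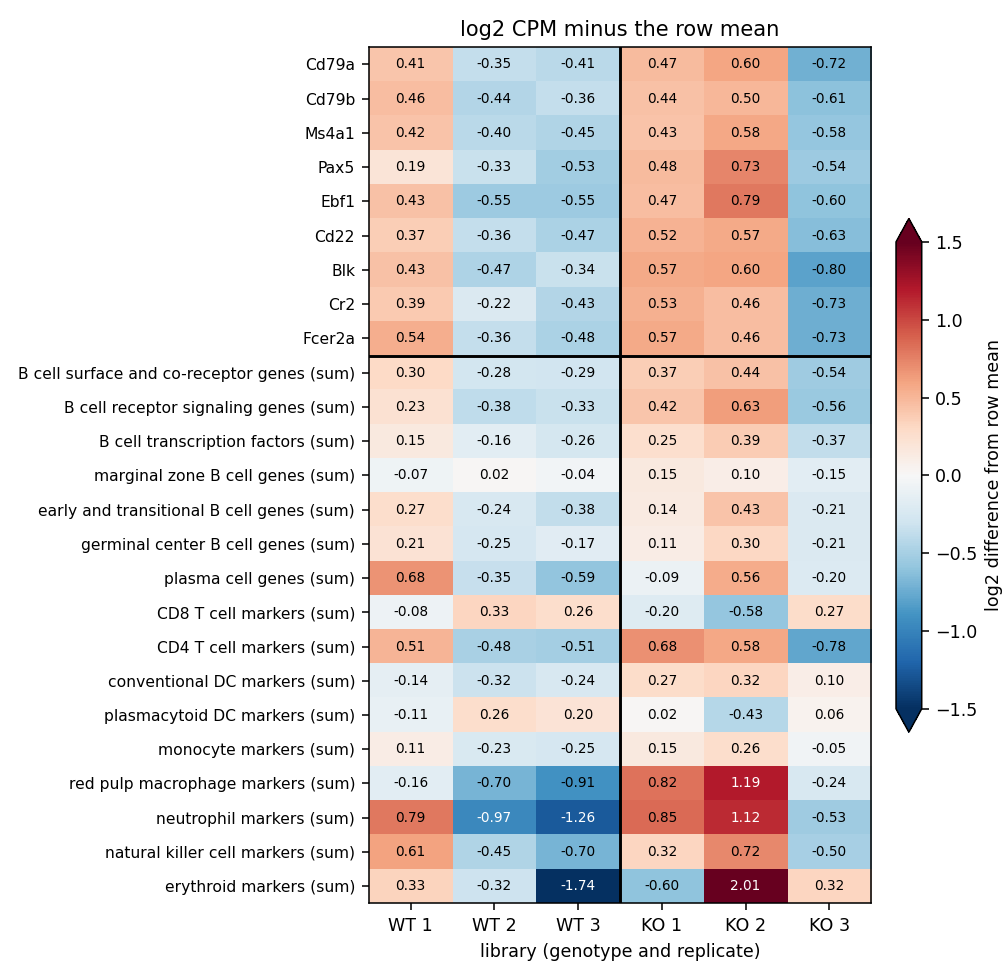
The log2 CPM of the 9 B cell genes and of the summed genes of 16 lists in each library, minus the row mean, with red above and blue below it. WT 1, KO 1 and KO 2 are red and WT 2, WT 3 and KO 3 blue for all 9 B cell genes, and the CD8 T cell row has the opposite colors.

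The pattern of the 9 genes was also sought among the 9787 genes with a mean log2 CPM of at least 3, as the root mean square difference between centred log2 profiles over the 6 libraries. The 9 genes themselves lay 0.0271 to 0.124 from their mean profile, and the median over all these genes was 0.527. The 5 other genes nearest to the mean profile, at 0.0447 to 0.0553, included *Pla2g7*, *Hhex*, *Pirb* and *Cxcr2*. *Hhex*, a homeobox factor, is used by B cells, while *Cxcr2*, a receptor for chemokines, is used by neutrophils, and *Pirb* is an inhibitory receptor of both B and myeloid cells. *Cxcr2* had 33.2, 18.3 and 18.9 CPM in the WT and 36.2, 34.7 and 15.6 CPM in the KO libraries. The nearest profiles thus included those of genes that myeloid cells use.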

How the data were processed

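The study's 6 RNA-seq libraries, 3 WT and 3 KO, were used. The files deposited by the authors hold expected counts for each Ensembl gene, that is, estimates with some fractional values and no scaling. This unit was read from the values. The genome build is GRCm38 (mm10) per the labels, and the aligner, the counting program and the use of strand are not given in the sources used here. Antisense genes overlap 636 bp and 125 bp of the exons of *Pax5* and 479 bp of those of *Cd22*, with at most 55 counts each.

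Symbols (44121 of 44678 identifiers), positions and exon lengths came from GENCODE M21. Counts were rounded and compared with edgeR 4.0.16 in R 4.3.3 (TMM, factors 0.989 to 1.014, filterByExpr at minimum count 10 and total 15, quasi-likelihood test, Benjamini-Hochberg adjustment, threshold 0.05). CPM are deposited counts divided by library totals. Libraries of one genotype differed by more than sampling noise (chi-square per degree of freedom 6.17 to 21.8). The *Fcer2a* to *Cr2* ratio was compared by an exact permutation test (scipy 1.17.1). The procedure was tested on simulated data. Promoters came from RefSeq tables.

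The alternatives were DESeq2 1.42.0, limma voom (limma 3.58.1), upper-quartile normalization, no low-count filter, a mean count of at least 10, a replicate block, immunoglobulin genes removed, unrounded counts, a pseudocount of 1 CPM for the ratio, and each library left out. Genes were named by rule: the 9 genes, called genes of the lists or else the 2 of highest mean CPM in each list of other B cell genes, and the 5 genes nearest in pattern. Further list genes were named as examples after their values were seen, and some genes that the rule selects are not reported here. The members and lists were chosen with earlier results of these data known.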

Additional observations from a re-analysis of the deposited data

How the results depend on the processing

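None of the 9 B cell genes was called in any of the 14 alternatives, and their fitted changes kept their direction except without KO replicate 1, where *Cr2* had a log2 fold change of -0.011 and *Fcer2a* of -0.030, and their highest values with 1 library left out were 0.49 and 0.60. The number of genes called over the whole table, 4 in edgeR, was 53 with DESeq2, 12 without a low-count filter and 9 with the replicate block, and ran from 2 to 94 with 1 library left out. It was 2 without WT replicate 1 or WT replicate 3, and 94 without KO replicate 3. With 1 library left out, the median log2 fold change of the 9 genes ran from 0.079 to 0.62, that of the other B cell genes from 0.071 to 0.51, and the difference in the log2 ratio of *Fcer2a* to *Cr2* from -0.043 to 0.11. The block pairs libraries by the numbers of their titles alone. Deviations of same-numbered libraries correlated across genes at -0.0101, -0.199 and 0.111 for numbers 1 to 3, and not every library correlated best with its own number. So few libraries cannot decide whether the numbers pair them. With the block the SE of each of the 9 genes was lower, as 0.262 against 0.369 for *Ebf1* and 0.174 against 0.326 for *Cr2*. The cause of the shifts between settings was not tested. With counts of at least 358 per library for each of the 9 genes, the spread between libraries and not counting error limits the comparison.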
